A study of Mus musculus with 6 samples.

Results

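The base excision and mismatch repair genes examined here are 32 named genes whose products remove damaged or mispaired bases from DNA, refill the gap, or copy past a lesion that was not removed. They were chosen by name, and a probe set counted for a gene only where the platform annotation gave it that gene symbol and no other. Of the 32 genes, 30 were measured, by 64 of the 45037 probe sets, out of 18193 measured genes in all. Tdg, which removes thymine and uracil opposite guanine, was left out because its probe sets are shared in the annotation with related loci, and Neil2 was not analysed here. Expression was measured on Affymetrix 3' arrays in BCR-ABL1-driven mouse acute lymphoblastic leukaemia, with 3 arrays of AID-/- leukaemia and 3 of AID+/+ leukaemia, all labelled Balb/c. BCR-ABL1 is a fusion tyrosine kinase that both groups carry, and AID is the activation-induced cytidine deaminase that the AID-/- leukaemias lack. The labels give no animal age, treatment or culture. They call the 3 leukaemias of each genotype biological replicates, but do not tie them to separate animals. The p-values therefore measure the spread between these samples only, which may not be the spread between animals. The series compared AID-expressing with AID-deficient leukaemia.

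AID turns cytosine in DNA into uracil. In B cells that uracil is either cut out by a DNA glycosylase, which starts base excision repair, or read together with its guanine as a mismatch, which starts mismatch repair. In base excision repair a glycosylase removes the base, an endonuclease cuts the strand at the empty site, a polymerase fills the gap and a ligase seals it. In mismatch repair a recognition dimer binds the mispair, a second dimer nicks the strand, an exonuclease removes a stretch of it and a polymerase refills it. Translesion polymerases copy across the sites that remain, and with AID they contribute to the mutations of immunoglobulin genes.

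The arrays of a group resembled each other, with Pearson's r across probe sets (not independent replicates) of 0.991 to 0.994 within AID-/- and 0.995 to 0.996 within AID+/+ leukaemia, against 0.972 to 0.977 between groups. All 8 measured B-lineage markers of the 9 listed lay above the median probe set on average, with a summed level of 15.20 to 15.30 in AID-/- and 14.97 to 15.11 in AID+/+ arrays on the log2 scale. Of these 8, Blnk, an adaptor of the pre-B cell receptor, passed: it was higher in AID-/- leukaemia by 2.09 (SE 0.12, limma adjusted p = 1.60e-05), and the other 7 did not pass. Of the markers of other cells, 3 of 6 T cell, 2 of 9 myeloid, and none of the 2 NK cell, 3 erythroid and 5 stromal or endothelial genes measured lay above the median probe set. Of these 25 markers 1 passed the test, the myeloid gene Lyz2, which was higher in AID-/- leukaemia. The NK cell markers summed to 4.72 to 4.81 in AID-/- and 4.96 to 5.31 in AID+/+ arrays, without a call. The part of such markers in the results was not tested. The control probe sets for RNA quality overlapped between groups: the 3' minus 5' difference of Actb was 0.37 to 0.45 on the AID-/- and 0.25 to 0.55 on the AID+/+ arrays, and that of Gapdh was -0.07 to -0.02 and -0.07 to 0.05. Sex-linked transcripts separated the groups: Xist averaged 5.30 ± 0.86 on the AID-/- and 12.01 ± 0.14 on the AID+/+ arrays (SD, n = 3), and the Y-linked Kdm5d 7.66 ± 0.06 and 2.58 ± 0.14. In every comparison below, the sex of the cells and their genotype thus cannot be told apart. In bulk RNA, fewer cells of a type and less RNA per cell cannot be told apart either.

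Across the 30 measured repair genes, 5 of the 9 DNA glycosylase genes were lower in AID-/- leukaemia and the other 4 did not pass, most enzymes of the later repair steps did not pass, and a few mismatch repair genes moved in either direction. Of the 30 genes, 7 fell, 3 rose and 20 stayed short of the threshold (limma, adjusted p under 0.05 over all 18193 genes). That is 33.3% of the members, beside 18.1% called over all genes. Higher genes made up 9.93% and lower genes 8.21% of all genes. Every member lay above the median probe set, and called shares differ with level: among the 7965 genes at or above the mean of the dimmest member, a comparison added after the data were seen, 28.1% were called. The share of members called was near that value. The 3 AID-/- and 3 AID+/+ values did not overlap for 17 of the 30 members, or 56.7%, beside 36.5% of all genes and 51.5% of the genes at or above that level. The median difference of the members was -0.01, beside -0.03 for all genes, on the log2 scale as AID-/- minus AID+/+.

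**Figure D1:**
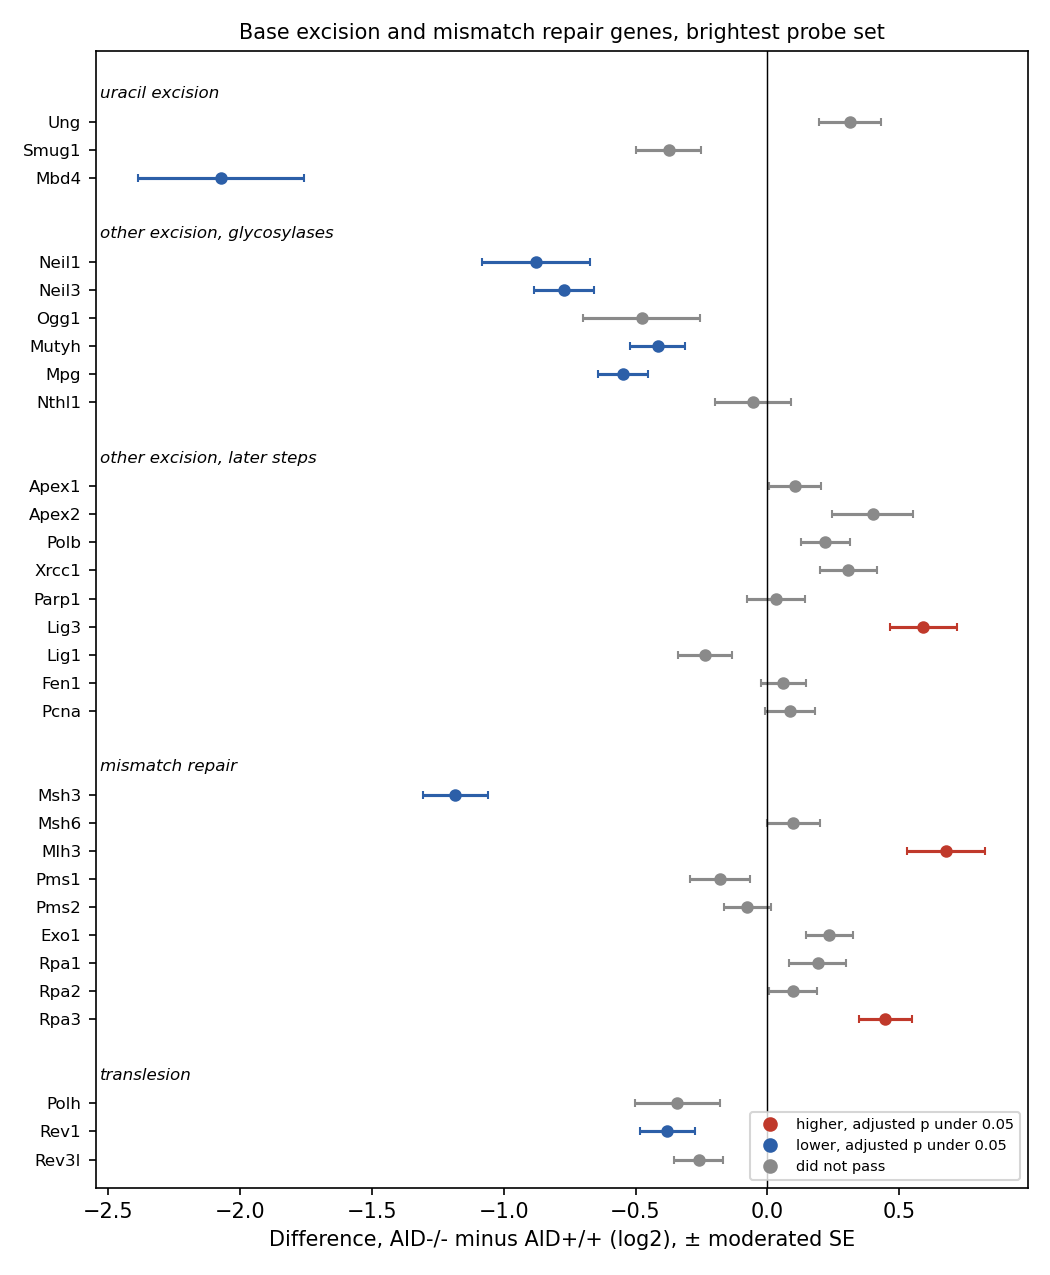
Difference in log2 expression (AID-/- minus AID+/+, n = 3 arrays each) of the 30 measured members at their brightest probe set, with bars of the moderated standard error, ordered by repair step. All 6 glycosylases of the second block lie left of 0, while 8 of the 9 genes of the later excision steps lie right of 0, of which Lig3 passed.

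Among the uracil-excising glycosylases, Mbd4 fell in AID-/- leukaemia, while Ung and Smug1 did not pass and differed in opposite directions. Mbd4, which removes thymine or uracil from mispairs with guanine at methylated CpG sites, was at 7.39, 5.93 and 7.01 in AID-/- replicates 1, 2 and 3 and at 8.90, 8.82 and 8.82 in the AID+/+ replicates. The groups did not overlap, the SD of the 3 AID+/+ arrays was 0.05, and AID-/- replicate 2 was lowest. The difference of -2.07 (SE 0.32), a 4.20-fold lower level, had an adjusted p of 0.00280 by limma. The size of this decrease depended on the probe set. A second probe set fell by 0.82 (SE 0.22, adjusted p = 0.0416 by limma over all probe sets), with 5.62, 4.86 and 5.79 in AID-/- and 6.39, 6.21 and 6.13 in AID+/+ arrays. The third differed by -0.13 (SE 0.35), with 7.44, 5.82 and 6.93 against 7.12, 6.74 and 6.73, so the groups overlapped there. AID-/- replicate 2 was the lowest array at all 3 probe sets. With the probe sets averaged, Mbd4 differed by -1.01 and did not pass (adjusted p = 0.0533 by limma).

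Ung encodes the main uracil glycosylase acting on AID lesions in B cells. Its values were 8.79, 8.38 and 8.59 on the AID-/- arrays and 8.23, 8.26 and 8.33 on the AID+/+ arrays, with no overlap. Its difference of 0.31 (SE 0.12) did not pass (limma adjusted p = 0.109). Of the 6 fits that left out 1 array, Ung passed in 1, without AID-/- replicate 2 (0.41, limma adjusted p = 0.0451). Without AID-/- replicate 1 the difference was 0.21 (limma adjusted p = 0.254). Smug1, another uracil glycosylase, was at 6.60, 6.35 and 6.72 in AID-/- and 6.83, 6.87 and 7.08 in AID+/+ arrays. That difference of -0.37 (SE 0.12) did not pass either (limma adjusted p = 0.0719). Of the 3 measured uracil glycosylases, all had groups that did not overlap, and 1 was called, or 33.3%. Groups did not overlap for 36.5% of all genes and for 51.5% of those at or above the mean of the dimmest member. The called shares of these gene sets were 18.1% and 28.1%.

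The glycosylases for oxidised and alkylated bases were lower in AID-/- leukaemia in 4 of 6 cases, and the remaining 2 did not pass. Over all genes, 8.21% were called lower. Of the genes at or above the mean of the dimmest member, 28.1% were called in either direction. With any single AID+/+ array left out, 2 of the 6 glycosylases were called lower. The 6 differences lay between -0.88 and -0.05, with a median of -0.51. Neil1, a glycosylase for oxidised pyrimidines, was at 8.33, 9.18 and 9.08 in AID-/- and 9.77, 9.72 and 9.73 in AID+/+ arrays. AID-/- replicate 1 was well below the other two, and the difference was -0.88 (SE 0.20, limma adjusted p = 0.0192). Without AID-/- replicate 1 it was -0.61, and the call was lost without any single AID+/+ array (limma adjusted p up to 0.0657). Neil3, a related enzyme that acts on single-stranded and cross-linked DNA, was at 8.35, 8.41 and 8.61 in AID-/- and 9.35, 9.26 and 9.06 in AID+/+ arrays. It fell by 0.77 (SE 0.11, limma adjusted p = 0.00248), a 1.71-fold lower level. Its other probe set fell by 1.26 (SE 0.17), from 8.77, 8.91 and 8.55 in AID+/+ to 7.28, 7.30 and 7.85 in AID-/- arrays. Neil3 thus had both probe sets called and groups apart at each, and its call was kept in every one of 15 alternative analyses.

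Mpg removes alkylated purines. It was at 7.78, 7.80 and 7.98 in AID-/- and 8.39, 8.36 and 8.45 in AID+/+ arrays, a decrease of 0.55 (SE 0.09, limma adjusted p = 0.00488). Its 2 dimmer probe sets differed by -0.26 and 0.08 and did not pass, and with all 3 averaged Mpg differed by -0.24 (limma adjusted p = 0.0734). Mutyh removes adenine that was paired with an oxidised guanine. It was at 7.18, 7.42 and 7.45 in AID-/- and 7.80, 7.79 and 7.70 in AID+/+ arrays, with no overlap and a difference of -0.42 (SE 0.10, limma adjusted p = 0.0250). The call on Mutyh was lost in 4 of the 6 fits that left out 1 array, the exceptions being those without AID-/- replicate 2 or 3 (limma adjusted p up to 0.0787), and with the replicate block (0.0608).

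Ogg1, the glycosylase that removes oxidised guanine itself, was at 6.30, 6.65 and 6.41 in AID-/- and 7.49, 6.62 and 6.69 in AID+/+ arrays. The groups overlapped, AID+/+ replicate 1 was the highest, and the difference of -0.48 (SE 0.22) did not pass (limma adjusted p = 0.197). Without AID+/+ replicate 1 it was -0.20. Nthl1, a glycosylase for oxidised pyrimidines, was at 7.08, 6.57 and 6.76 in AID-/- and 6.70, 6.91 and 6.96 in AID+/+ arrays and differed by -0.05 (SE 0.14, limma adjusted p = 0.849).

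**Figure D2:**
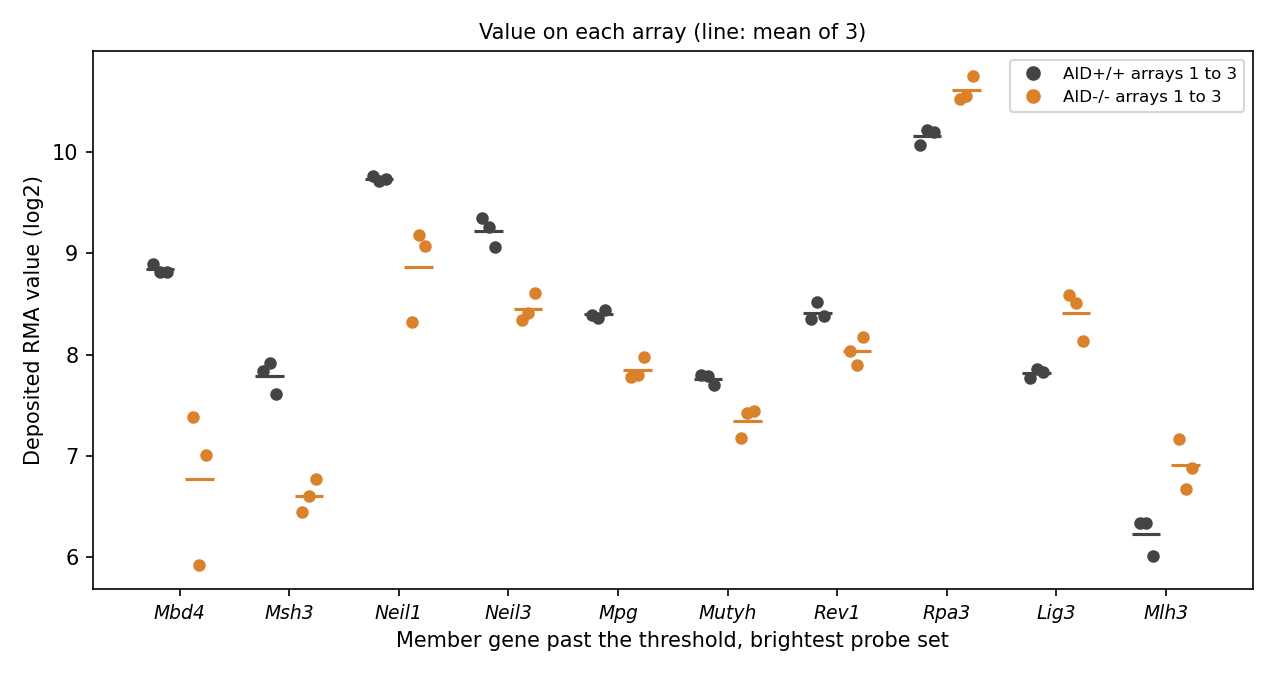
Deposited log2 value of the 10 members past the threshold on each of the 6 arrays, at the brightest probe set, with a line at the mean of 3; levels are to be compared within a gene, not between genes. The AID-/- points of Mbd4 spread over 5.93 to 7.39 and those of Neil1 over 8.33 to 9.18, while the AID+/+ points of both lie close together.

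The promoters of the 5 lower glycosylase genes and of Msh3 are shown because these are the members called lower at the excision step, together with the lower mismatch recognition gene described next. Each is the 250 bases before the first listed start of the gene in RefSeq GRCm38.p6, on the gene's strand, 5′ to 3′. Capitals mark exact matches on either strand to the GC box (GGGCGG), the CCAAT box (CCAAT) or the E2F motif (TTTCCCGC, TTTGGCGC, TTTCGCGC or TTTGCCGC).
Mbd4, chr6:115853342-115853591, minus strand: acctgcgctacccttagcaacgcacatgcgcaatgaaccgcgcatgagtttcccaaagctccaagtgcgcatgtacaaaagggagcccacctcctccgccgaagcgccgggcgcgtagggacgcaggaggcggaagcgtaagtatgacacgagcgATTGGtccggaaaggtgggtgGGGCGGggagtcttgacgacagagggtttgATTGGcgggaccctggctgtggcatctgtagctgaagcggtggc
Neil1, chr9:57148306-57148555, minus strand: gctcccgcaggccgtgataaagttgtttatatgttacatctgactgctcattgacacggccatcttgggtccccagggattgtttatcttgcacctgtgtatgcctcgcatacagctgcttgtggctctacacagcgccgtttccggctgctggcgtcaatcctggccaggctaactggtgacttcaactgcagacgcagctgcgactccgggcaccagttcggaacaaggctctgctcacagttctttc
Neil3, chr8:53639066-53639315, minus strand: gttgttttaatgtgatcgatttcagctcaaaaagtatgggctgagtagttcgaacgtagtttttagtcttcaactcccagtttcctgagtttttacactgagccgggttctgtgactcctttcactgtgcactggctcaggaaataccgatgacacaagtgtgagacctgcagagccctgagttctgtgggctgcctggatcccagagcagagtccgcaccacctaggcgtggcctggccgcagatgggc
Mutyh, chr4:116807484-116807733, plus strand: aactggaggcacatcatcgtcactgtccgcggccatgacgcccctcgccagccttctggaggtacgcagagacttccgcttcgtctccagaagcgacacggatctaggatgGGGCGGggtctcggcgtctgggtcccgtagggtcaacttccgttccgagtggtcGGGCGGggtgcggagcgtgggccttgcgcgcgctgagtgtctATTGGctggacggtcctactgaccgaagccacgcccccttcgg
Mpg, chr11:32226255-32226504, plus strand: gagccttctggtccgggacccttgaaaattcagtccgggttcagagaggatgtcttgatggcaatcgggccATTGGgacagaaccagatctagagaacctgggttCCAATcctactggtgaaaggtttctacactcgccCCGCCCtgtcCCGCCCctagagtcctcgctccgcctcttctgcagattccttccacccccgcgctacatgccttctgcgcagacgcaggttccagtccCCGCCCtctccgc
Msh3, chr13:92355004-92355253, minus strand: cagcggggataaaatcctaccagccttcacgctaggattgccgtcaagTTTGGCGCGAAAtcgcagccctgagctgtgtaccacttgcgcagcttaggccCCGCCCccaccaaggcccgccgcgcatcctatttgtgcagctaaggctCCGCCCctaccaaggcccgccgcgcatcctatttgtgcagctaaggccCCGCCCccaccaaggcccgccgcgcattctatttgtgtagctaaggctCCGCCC
The windows of Mpg, Mutyh and Mbd4 held 3, 2 and 1 GC boxes and 2, 1 and 2 CCAAT boxes, while those of Neil1 and Neil3 held none of these letters. That of Msh3 held 4 GC boxes and 2 overlapping E2F matches. RefSeq promoters were matched for 26 of the 30 measured members. Of these windows 16 held a GC box and 16 a CCAAT box, or 61.5% each, beside 32.9% and 34.5% of 27025 promoters of the same length, 1 per gene. The E2F motif was found in 2 members, Msh3 and Nthl1, or 7.69%, beside 1.91% of all promoters. The promoters of this comparison were not matched to the members by expression level and were not limited to measured genes. Among the 7 lower members 5 had a GC box, 3 a CCAAT box and 1 the E2F motif, so the lower members did not share any of the searched motifs.

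After base removal, the genes for strand cutting, gap filling and ligation did not pass, apart from Lig3, which was higher in AID-/- leukaemia. Of the 9 genes 1 rose, 0 fell and 8 stayed short of the threshold (5 had an unadjusted p under 0.05 by limma). That is 11.1% called, beside 18.1% of all genes and 28.1% of those at or above the mean of the dimmest member. Lig3 encodes the ligase that works with XRCC1 and that also serves mitochondria. It was at 8.59, 8.51 and 8.14 in AID-/- and 7.77, 7.86 and 7.83 in AID+/+ arrays, with AID-/- replicate 3 nearest to the AID+/+ arrays. The difference was 0.59 (SE 0.13), or 1.51-fold, with a limma adjusted p of 0.0134, and the call was lost without AID+/+ replicate 1 (limma adjusted p = 0.0511). Of its 4 other probe sets, 2 were also higher, by 0.51 (SE 0.09) and 0.63 (SE 0.18), 1 differed by 0.21 without passing, and the dimmest differed by -0.12. Lig3 was therefore called at 3 of 5 probe sets.

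Xrcc1, the scaffold that binds LIG3, was at 9.73, 9.97 and 9.97 in AID-/- and 9.61, 9.46 and 9.68 in AID+/+ arrays. The groups did not overlap, but the difference of 0.31 (SE 0.11) did not pass (limma adjusted p = 0.0908). It passed without AID-/- replicate 1 (0.39, limma adjusted p = 0.0470), but in no other fit that left out 1 array (limma adjusted p up to 0.245). Polb, the polymerase that fills the gap of a single base, was at 8.67, 8.74 and 8.88 against 8.52, 8.51 and 8.60 and differed by 0.22 (SE 0.09, limma adjusted p = 0.158). Its 4 probe sets differed by -0.10 to 0.27 and none was called.

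Apex1 encodes the main endonuclease for empty sites. Its mean was 11.41 ± 0.09 over the AID-/- and 11.30 ± 0.11 over the AID+/+ arrays (SD, n = 3), and its 3 probe sets differed by 0.10 to 0.15 without passing. Apex2, its X-linked relative, was at 6.54, 7.14 and 6.85 in AID-/- and 6.44, 6.57 and 6.32 in AID+/+ arrays, where AID-/- replicate 1 lay below AID+/+ replicate 2. Its difference of 0.40 (SE 0.15) did not pass (limma adjusted p = 0.118), whereas its second probe set was higher by 0.46 (SE 0.12, limma adjusted p = 0.0440 over all probe sets), at 6.64, 6.84 and 6.76 against 6.53, 6.21 and 6.13. With the probe sets averaged the difference was 0.43 (limma adjusted p = 0.0441), and without AID-/- replicate 1 it was 0.55 (0.0252). Apex2 thus stood on either side of the threshold according to the probe set used.

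The genes shared with DNA replication, and the break sensor Parp1, differed little and did not pass. Pcna, the sliding clamp that holds polymerases on DNA, was at 13.32, 13.37 and 13.45 in AID-/- and 13.28, 13.42 and 13.19 in AID+/+ arrays and differed by 0.09 (SE 0.10). Fen1, the nuclease that trims the displaced flap, differed by 0.06 (SE 0.09), and its other probe set by 0.08. Parp1, which marks strand breaks with poly(ADP-ribose), differed by 0.03 (SE 0.11) and by 0.01 to 0.41 over its 4 probe sets, none of which was called. Lig1, the replicative ligase, was at 10.98, 11.15 and 11.16 against 11.46, 11.24 and 11.30. Those groups did not overlap, and the difference of -0.24 (SE 0.10) did not pass (limma adjusted p = 0.159). Proliferation genes, listed beside these because the same cells must replicate, included 0 higher and 2 lower of 26 measured, or 7.69% called. Over all genes 18.1% were called, and 28.1% of those at or above the mean of the dimmest member. The 2 lower genes were the replication licensing gene Cdt1, which fell by 0.75 (SE 0.10), and the thymidine kinase gene Tk1, which fell by 0.53 (SE 0.10). Bub1 and Cdk1, next by p, differed by -0.32 and 0.24 without passing. The median difference of that list was 0.01.

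In mismatch repair, the recognition gene Msh3 fell in AID-/- leukaemia, and the partner of another dimer, Mlh3, and the single-strand binding subunit Rpa3 were higher. The other 6 of 9 genes did not pass. The called share of 33.3% stands beside 18.1% of all genes and 28.1% of those at or above the mean of the dimmest member, and is near the latter. Msh3 encodes the subunit that recognises larger insertion and deletion loops. It was at 6.44, 6.61 and 6.77 in AID-/- and 7.84, 7.92 and 7.61 in AID+/+ arrays, with wide separation and a similar spread in both groups. The difference of -1.18 (SE 0.12), a 2.27-fold lower level, had the smallest adjusted p among the members by limma (0.000429). All 4 probe sets of Msh3 were lower on average, by 0.15 to 1.18, but 1 was called. The second brightest was at 6.07, 6.17 and 5.72 in AID-/- and 6.20, 6.63 and 6.18 in AID+/+ arrays, and the 2 dimmest lay below the median probe set. With the probe sets averaged Msh3 differed by -0.47 and remained past the threshold (limma adjusted p = 0.00357), as it did in the other 14 alternative analyses (adjusted p up to 0.0242, without moderation). Msh6, which takes part in recognising single mispairs such as the one AID leaves, was at 10.13, 10.23 and 10.24 in AID-/- and 10.24, 10.06 and 9.99 in AID+/+ arrays. The groups overlapped, and the difference was 0.10 (SE 0.10, limma adjusted p = 0.571).

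Mlh3 encodes a subunit of a nicking complex. It was at 7.16, 6.67 and 6.88 in AID-/- and 6.33, 6.34 and 6.01 in AID+/+ arrays, with no overlap. The difference was 0.68 (SE 0.15), or 1.60-fold (limma adjusted p = 0.0147), measured by 1 probe set, and the call was lost without AID+/+ replicate 3 (limma adjusted p = 0.0596). The alternative partners in that position did not pass: Pms2 differed by -0.08 (SE 0.09), with -0.31 and a value close to 0 at its other probe sets, and Pms1 by -0.18 (SE 0.11). Both had overlapping groups at the brightest probe set.

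Exo1, the exonuclease that removes the nicked strand, gave opposite signs at its probe sets. The brightest was at 9.05, 8.97 and 8.95 in AID-/- and 8.68, 8.82 and 8.75 in AID+/+ arrays, a difference of 0.24 (SE 0.09) that did not pass (limma adjusted p = 0.111). The next differed by -0.13. The dimmest, below the median probe set, was at 2.90, 2.93 and 3.21 against 4.19, 3.73 and 3.44 and was called lower (-0.77, SE 0.18, limma adjusted p = 0.0256 over all probe sets). Values that low hold little order, so no direction is given for Exo1.

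Of the 3 subunits of replication protein A, which coats single-stranded DNA, 1 passed. Rpa3, the smallest subunit, was at 10.52, 10.56 and 10.75 in AID-/- and 10.07, 10.22 and 10.20 in AID+/+ arrays. It was higher by 0.45 (SE 0.10, limma adjusted p = 0.0165), and this call was lost when AID-/- replicate 3 or either of AID+/+ replicates 1 and 3 was left out (limma adjusted p up to 0.0586). Rpa1 and Rpa2 differed by 0.19 (SE 0.11) and 0.10 (SE 0.09) without passing, and all 4 of their probe sets had differences above 0. Whether the 3 subunits differed from each other was not tested.

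**Figure D3:**
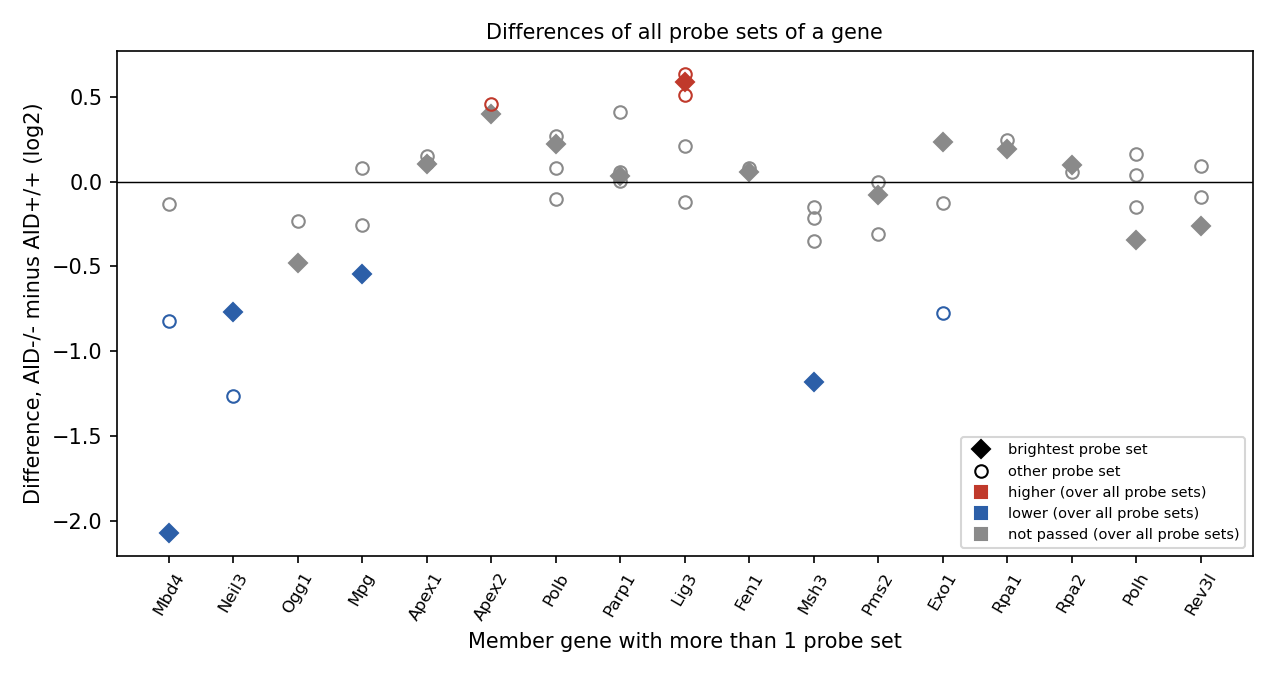
Difference in log2 expression (AID-/- minus AID+/+) of each probe set of the 17 members that had more than 1, with diamonds for the brightest probe set and circles for the others, coloured by the call over all 45037 probe sets. All probe sets of a gene had the same sign in 11 of the 17 genes, and the probe sets of Mbd4, Msh3 and Exo1 spread widely.

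Counted by probe set, 6 of the 64 member probe sets were higher and 10 were lower, or 25.0%, beside 14.6% of all 45037 probe sets. Of the 64, 57 lay above the median probe set, and a called share among probe sets of like level was not computed. Of the 17 members with more than 1 probe set, 11 had the same sign throughout and 6 had mixed signs.

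All 3 translesion genes had differences below 0 at their brightest probe set, as did 10215 of all 18193 genes. Of the 3, Rev1 passed, or 33.3%. Over all genes 18.1% were called, and 28.1% of those at or above the mean of the dimmest member. Rev1, the deoxycytidyl transferase and scaffold of translesion synthesis, was at 8.03, 7.90 and 8.18 in AID-/- and 8.35, 8.52 and 8.38 in AID+/+ arrays. The groups did not overlap, and the difference was -0.38 (SE 0.11, limma adjusted p = 0.0392). That call was lost when any array except AID-/- replicate 3 was left out, or in 5 of 6 such fits (limma adjusted p up to 0.127), with median centring of the arrays (0.0534) and with the replicate block (0.0909). Rev3l, the catalytic subunit of polymerase zeta, was at 8.89, 8.87 and 8.95 against 9.17, 9.26 and 9.06. Its groups were apart, and its difference of -0.26 (SE 0.09) did not pass (limma adjusted p = 0.0935). Its 2 dimmer probe sets differed by -0.09 and 0.09. Polh, the polymerase that mutates at A and T bases during hypermutation, was at 9.68, 9.32 and 9.45 in AID-/- and 10.17, 9.67 and 9.64 in AID+/+ arrays. The groups overlapped, AID+/+ replicate 1 was the highest, and the difference of -0.34 (SE 0.16) did not pass (limma adjusted p = 0.200). Its other probe sets were dimmer, with means of at most 6.45 beside 9.65 for the brightest, and differed by -0.15 to 0.16. Of the 4 probe sets of Polh, 2 had differences below 0.

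Other genes of the pathway outside the 32 changed in both directions, with a large increase of Hmces. Of 35 measured, 5 rose, 6 fell and 24 stayed short of the threshold. That is 31.4% called, beside 18.1% of all genes. Of the genes at or above the mean of the dimmest member, 28.1% were called, which is near the share of this list. The list reaches below that level: its dimmest gene lay at percentile 58.5 of the probe sets, the dimmest member at 67.6. Hmces encodes a protein that attaches to empty sites in single-stranded DNA and shields them. It was at 8.58, 9.26 and 9.11 in AID-/- and 4.60, 5.01 and 4.67 in AID+/+ arrays. The AID+/+ values lie near the median probe set, at 4.89, and the difference was 4.23 (SE 0.19, limma adjusted p = 3.48e-06) at its 1 probe set.

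Alkbh3, a dioxygenase that reverses alkylation damage, was higher by 1.11 (SE 0.10), at 9.34, 9.39 and 9.54 in AID-/- and 8.21, 8.40 and 8.34 in AID+/+ arrays, and its other probe set differed by 0.30 without passing. Pole2, a subunit of the leading-strand polymerase, fell by 1.51 (SE 0.12), at 10.21, 10.20 and 10.27 against 11.51, 11.78 and 11.93, and its dimmer probe set fell by 1.83. Poli, a translesion polymerase of the same family as Polh, fell by 1.10 (SE 0.13), at 7.59, 7.26 and 7.60 against 8.46, 8.56 and 8.73. Each of these 3 genes had groups that were far apart, with limma adjusted p of 0.000194, 8.40e-05 and 0.000684.

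The remaining calls of this list were named after their values were seen. Mad2l2, the accessory subunit that joins REV1 to REV3L, fell by 0.58 (SE 0.10), and Wdr48, Pold2 and Rfc1 fell by 0.41 to 0.49. The X-linked ubiquitin-conjugating gene Ube2a rose by 0.64 (SE 0.13) at the brighter and by 0.50 at the dimmer of its 2 probe sets. Alkbh2, another alkylation reversal enzyme, and Nudt1, which clears oxidised nucleotides, were higher by 0.62 (SE 0.09) and 0.37 (SE 0.09).

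**Figure D4:**
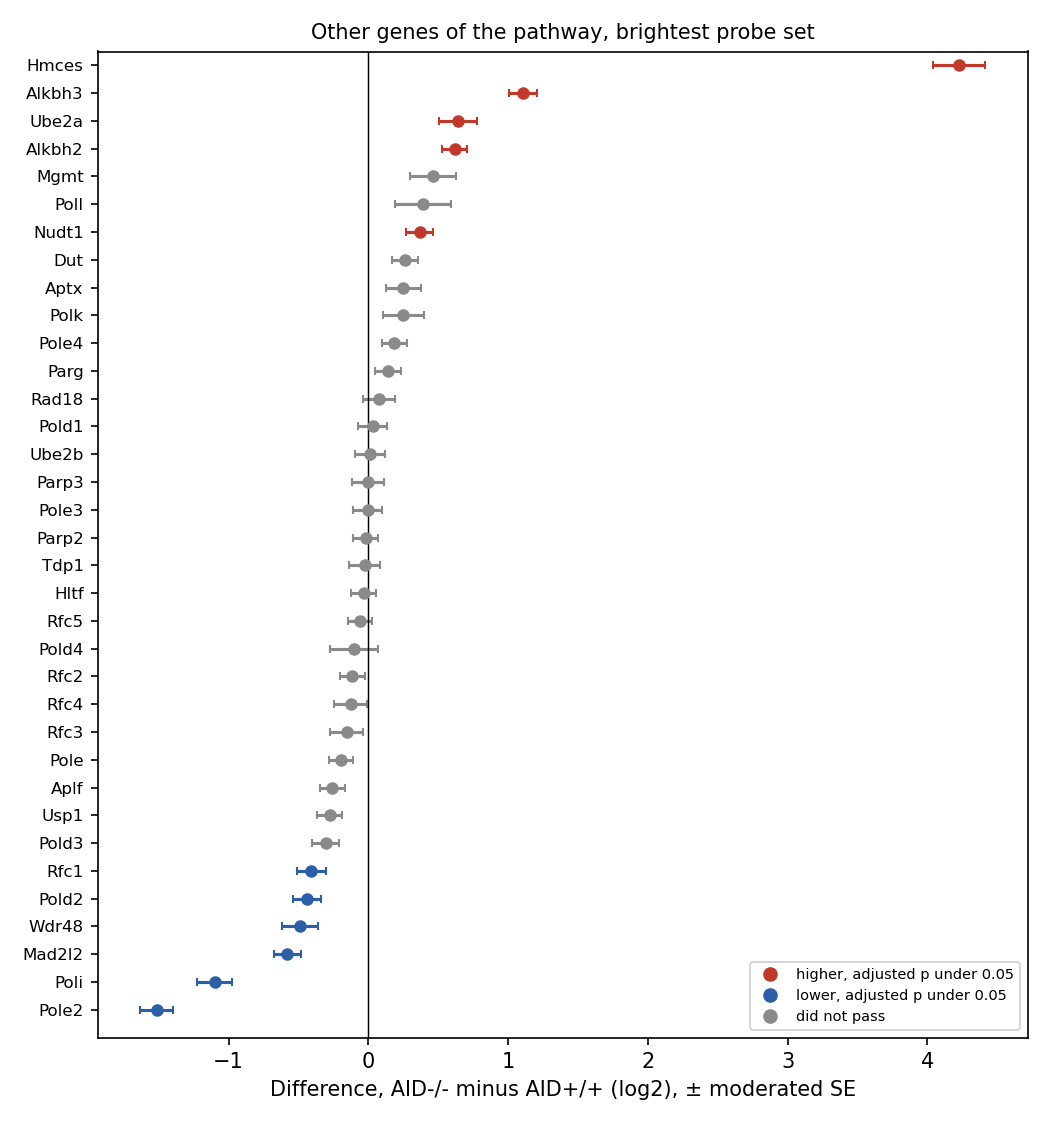
Difference in log2 expression (AID-/- minus AID+/+, n = 3 arrays each) of the 35 measured other genes of the pathway, with bars of the moderated standard error, sorted by size. Hmces lies apart at 4.23, and Pole2 and Poli lie at the lower end at -1.51 and -1.10.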

How the data were processed

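The authors deposited log2 expression values, with 1 value per probe set and array. RMA and Partek are named for them, per the submitters' processing notes, with neither versions nor an order of steps. Array medians lay between 4.85 and 4.90. RMA pulls arrays to a common distribution, so a change is relative to other genes, and with no detection calls used here a dim probe set cannot be called absent. Precision is set by the number of arrays.

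The table held 45101 probe sets. After 64 array controls were removed, 45037 were tested, of which 34945 carried 1 symbol, 932 several and 9160 none in the platform annotation. Entrez identifiers gave current RefSeq GRCm38.p6 symbols for 34741. Each gene was read from its brightest probe set (highest mean of the 6 arrays). All tested probe sets entered 1 fit in limma 3.58.1 under R 4.3.3 (two-sided, lmFit with genotype as the single term, then eBayes), and p-values were adjusted by Benjamini-Hochberg over 18193 genes, or over all probe sets where stated, with a threshold of 0.05. The fit was tested on simulated data. Alternatives changed the scaling, the filter on dim probe sets, the moderation, array weights, the threshold, the use of several probe sets, the replicate block and the arrays included.

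All members are named, and those called at any probe set are given on every array. Of the other pathway and proliferation lists, up to 4 genes with the smallest p are named by rule. Members and lists were chosen with earlier results of these data known. Same-numbered replicates did not deviate together (correlations of -0.05, -0.07 and 0.03), and were not taken as pairs.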

Additional observations from a re-analysis of the deposited data

How the results depend on the processing

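Neil3, Msh3, Hmces, Pole2, Alkbh3 and Poli kept their direction and their call in all 15 alternatives run for each gene. Without variance moderation 0 members were higher and 3 lower, with 2 glycosylases lower, 3 higher and 3 lower other pathway genes, and 912 higher and 723 lower genes in all. At an adjusted p of 0.01 these counts were 0, 4, 2, 3, 3, 983 and 777. With 1 array left out, members called higher ranged from 1 to 5 and lower from 4 to 7, glycosylases called lower from 2 to 4, other pathway genes called higher from 4 to 7 and lower from 3 to 6, and all genes called higher from 1227 to 1795 and lower from 956 to 1304. Members called higher were 5 without AID-/- replicate 1 and 1 without AID+/+ replicate 1 or 3, and glycosylases called lower were 2 without any single AID+/+ array. The median difference of the members was -0.0634 with probe sets averaged, 0.0181 with median centring, and -0.0109 to 0.0200 with 1 array left out. Differences that changed sign, none of them called, were Nthl1 (0.0634) and Parp1 (-0.0678) without AID-/- replicate 2, with ranges of -0.194 to 0.0634 and -0.0678 to 0.102 over the fits that left out 1 array, and Exo1 (-0.22) with probe sets averaged. The replicate block left 3 members higher and 5 lower and took the calls of Mutyh and Rev1. A fit on the brightest probe sets only, added after seeing the data, called 3 members higher and 7 lower. The causes of these changes were not tested, except that leaving out an array leaves fewer samples.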
